A study of Mus musculus with 7 samples.

Results

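Chromatin accessibility was followed at 10 immediate early and AP-1 genes in mouse liver, namely Fos, Fosb, Jun, Junb, Jund, Atf3, Egr1, Ier2, Myc and Klf6. Their regions were chosen by position alone, as those that overlap the gene body or the 10 kb on either side in GENCODE M21 (build GRCm38), and 28 of the 55680 regions in the count table met this rule. All 10 genes had a region at a transcription start site (TSS), and the strongest such region stands for the promoter of each gene, which leaves 18 other regions. Of these 18, 5 also overlap a start site, 1 within Junb and 4 of neighbouring genes, and 13 do not. The samples were livers of C57BL/6N mice, 3 from young animals of 3 months and 4 from aged animals of 18 months, profiled by ATAC-seq on nuclei, in which a transposase cuts and tags open DNA. Neither age carried a treatment or an engineered allele. According to the series' design, the 4 aged samples came from 3 animals, since separate lobules of 1 liver were counted as separate samples, and the labels do not say which samples these are. Because the p-values below take all 7 samples as independent, they are too small to the extent that those lobules are alike. In tissue of mixed cells, fewer cells of a type and less accessibility per cell cannot be told apart.

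Immediate early genes are switched on within minutes of a growth, stress or injury signal, without new protein synthesis. Kinases of the MAP kinase cascades pass the signal to factors that already sit at the promoters, such as SRF with its partners at CArG boxes and CREB at cyclic AMP response elements (CREs). FOS and JUN proteins then pair to form AP-1, which binds the sequence TGANTCA in promoters and enhancers. In liver these genes are best known for their early response to partial hepatectomy and to injury.

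The accessible DNA of the Junb locus held a group of AP-1 sites that stood out by number, and this stretch is shown because an AP-1 subunit gene lies beside it. It comes from the GRCm38 genome, plus strand, at chr8:84985637-84985777, between genes and upstream of Junb, and the capitals mark 3 of the 4 AP-1 sites of that region. The nearest annotated start site lies 4201 bp from that region and is not that of Junb, from which its nearest edge is at -6.04 kb.

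Junb upstream: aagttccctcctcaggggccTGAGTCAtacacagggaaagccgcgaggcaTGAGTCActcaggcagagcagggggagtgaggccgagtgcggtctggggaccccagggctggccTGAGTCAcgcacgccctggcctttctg

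Of 4453 regions of a length within 10% of this one, 0.404% held as many AP-1 sites, and 34.4% held any. Counted in bases from the Junb TSS, the sites lay at -6628, -6942, -6972 and -7036. This stretch was chosen for its number of sites, so that the small share is a description.

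Upstream of Fos, both an AP-1 site (at -459 from the TSS) and a CArG box (at -305) lay inside the promoter region. The stretch at chr12:85473408-85473610 is given on the plus strand, with both motifs in capitals.

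Fos promoter: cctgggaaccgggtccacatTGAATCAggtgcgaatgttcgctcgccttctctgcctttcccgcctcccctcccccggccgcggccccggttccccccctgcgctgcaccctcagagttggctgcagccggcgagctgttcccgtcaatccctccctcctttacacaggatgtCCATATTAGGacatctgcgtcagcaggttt

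A CArG box was also found at -261 from the Fosb TSS (chr7:19310268-19310357, minus strand) and at -1445 from the Junb TSS (chr8:84980119-84980208, minus strand), and a CRE at -211 from the Jund TSS (chr8:70698695-70698782, plus strand). They are set beside each other, with the motif in capitals.

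Fosb promoter: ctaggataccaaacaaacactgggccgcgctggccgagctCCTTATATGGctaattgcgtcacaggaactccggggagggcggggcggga
Junb promoter: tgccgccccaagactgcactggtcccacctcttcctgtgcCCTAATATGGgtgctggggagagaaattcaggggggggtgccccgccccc
Jund promoter: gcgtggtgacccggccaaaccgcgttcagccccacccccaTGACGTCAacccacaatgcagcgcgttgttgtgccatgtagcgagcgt

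Fos, Fosb, Jun, Junb, Jund, Atf3 and Klf6 matched an entry in the RefSeq promoter table (GRCm38.p6), and the 20 regions of these 7 genes were searched on both strands for the AP-1 site TGANTCA, the CRE TGACGTCA and the CArG box. AP-1 sites lay in 4 of the 20 regions (7 sites in all) against 25.1% of all regions, CArG boxes in 6 against 4.50% and the CRE in 1 against 1.89%. A longer region holds a motif more often, and 10.01% of regions as long as the Fos promoter region held a CArG box, 2.76% of those as long as that of Fosb and 16.6% of those as long as that of Junb. An AP-1 site was in 48.1% of regions as long as the Fos promoter region, and a CRE in 4.85% of those as long as the Jund promoter region. No match says only that these letters were not in the window.

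The 250 bases before the RefSeq TSS were searched in addition for the GC box GGGCGG, the TATA box TATAAA and the EGR site GCGGGGGCG, which can overlap a GC box. The Jund window, before a start site farther upstream, had 0 bases in common with the Jund region described here and does not hold the CRE printed above. The AP-1 site, the CRE and the CArG box were in 0 of the 7 promoter windows, and in 6.75%, 1.55% and 1.47% of all 32851 RefSeq promoters. GC boxes were in 5 of the 7 windows and in 32.7% of all promoters. The TATA box, found in the Fos window, was in 12.4% of all promoters, and the EGR site, found in the Fosb window, in 2.57%. Windows of 3 members whose promoter regions had all aged samples above all young ones are given next, on the minus strand for Atf3 (chr1:191183334-191183583) and Jun (chr4:95052223-95052472) and on the plus strand for Klf6 (chr13:5861239-5861488). The capitals mark GC boxes, of which Atf3 had 5, 2 of them overlapping, and Jun and Klf6 had 1 each.

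Atf3 promoter: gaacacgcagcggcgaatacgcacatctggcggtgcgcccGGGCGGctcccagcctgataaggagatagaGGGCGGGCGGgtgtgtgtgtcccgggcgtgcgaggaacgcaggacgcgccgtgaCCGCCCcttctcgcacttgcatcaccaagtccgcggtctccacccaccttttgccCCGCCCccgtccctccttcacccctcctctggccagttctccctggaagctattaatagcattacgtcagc
Jun promoter: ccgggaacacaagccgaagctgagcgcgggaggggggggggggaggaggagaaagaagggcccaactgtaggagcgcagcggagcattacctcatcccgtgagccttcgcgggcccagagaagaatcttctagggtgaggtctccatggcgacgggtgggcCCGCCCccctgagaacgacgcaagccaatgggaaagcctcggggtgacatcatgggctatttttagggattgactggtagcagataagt
Klf6 promoter: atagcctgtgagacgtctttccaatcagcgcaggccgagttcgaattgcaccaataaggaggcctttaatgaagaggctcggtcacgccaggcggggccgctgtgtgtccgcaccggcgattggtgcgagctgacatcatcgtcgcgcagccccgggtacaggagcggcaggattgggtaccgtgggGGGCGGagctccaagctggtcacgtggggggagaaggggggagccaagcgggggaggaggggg

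To ask whether these loci differ in accessibility between young and aged liver, the raw counts were fitted by the quasi-likelihood method of edgeR over all 55680 regions, with Benjamini-Hochberg adjustment at 0.05 and age as the only factor. Levels below are CPM, counts divided by the scaled library total, with TMM scaling, and a log2 fold change is aged against young. None of the 28 member regions passed the adjusted threshold, while 5.74% of all regions did. The lowest adjusted p among the members was 0.0539, at the Atf3 promoter. Without adjustment, 9 of the 28 had a p under 0.05 with aged higher (11.9% of all regions) and 3 with aged lower (12.7%). DESeq2 called 4 member regions higher in aged liver (4.96% of all regions), the promoters of Jun, Jund, Atf3 and Klf6 (10% of all promoter regions), and 1 lower (3.47%), a region downstream of Egr1. limma's voom called 5 of the 28 (8.23% of all regions), the same 4 promoters and the same Egr1 region. In 6 of the 28 regions every aged sample lay above every young one (10.2% of all regions), and in 2 every aged sample lay below (11.6%).

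At the promoters the log2 fold changes all had the same sign. The 10 members had values from 0.03 at Fosb to 0.38 at Atf3 and Klf6, with a median of 0.33, against a median of 0.09 over all 15422 promoter regions, of which 61.1% were above 0. Member promoters were strong regions, and 9 of the 10 were in the strongest of 10 equal bins of all regions by mean log2 CPM, the exception being Fosb. The 4527 promoter regions of that bin had a median log2 fold change of 0.28, and 95.1% of them were above 0. The member promoters that DESeq2 called were all in this bin, and its share of DESeq2 calls was not counted. The share of calls over all promoter regions is therefore not matched for strength.

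**Figure D1:**
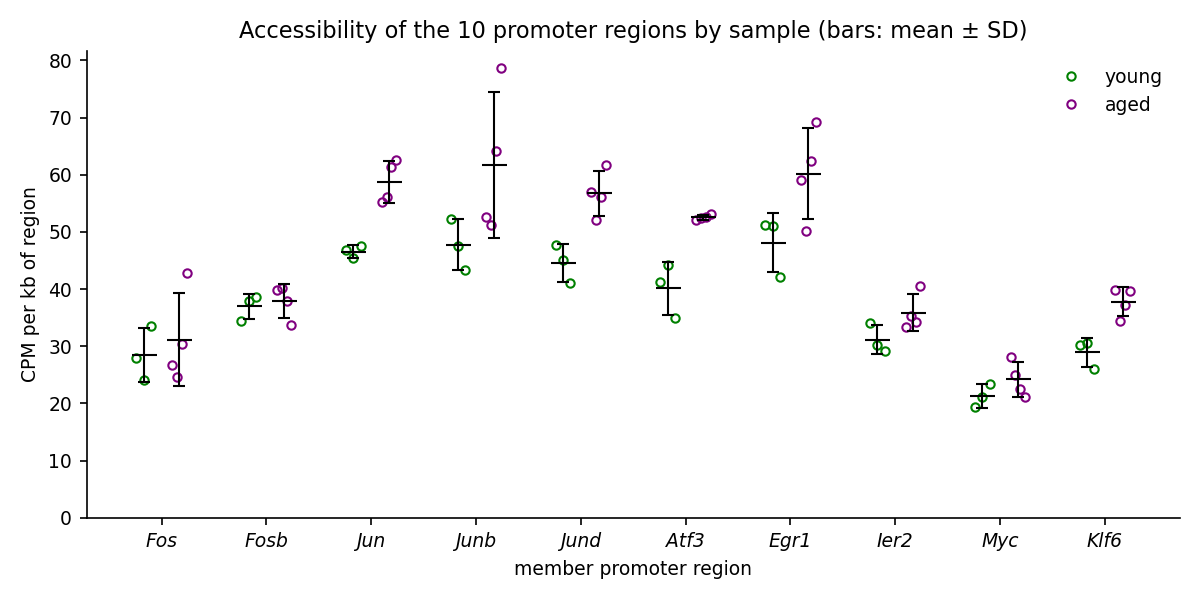
CPM per kb of region (vertical axis, TMM scaling) of the promoter region of each of the 10 genes, with a circle for each of 3 young and 4 aged samples and bars for the mean ± SD. At Jun, Jund, Atf3 and Klf6 the 4 aged circles are all above the 3 young ones, and at Fos, Fosb, Junb, Egr1, Ier2 and Myc the ages overlap.

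Jun is the classical partner of FOS and promotes cell cycle entry in regenerating liver. Its promoter region (chr4:95050015-95053940), which also holds the start of the antisense gene Junos, had 184, 178 and 187 CPM in the young samples and 217, 220, 241 and 246 CPM in the aged ones. The aged samples were all above the young ones, with a log2 fold change of 0.34 (SE 0.11, edgeR adjusted p = 0.0724; DESeq2 0.37, adjusted p = 0.0129). ATAC-seq reads carry no strand of transcription, so that Jun and Junos share this value. Jund, the JUN protein with the most constant expression, had 130, 123 and 112 CPM in young and 156, 143, 154 and 169 CPM in aged samples at its promoter region (chr8:70698121-70700856), shared with the start of Gm11175. Again the ages did not overlap, and the log2 fold change was 0.35 (SE 0.11, edgeR adjusted p = 0.0723; DESeq2 0.38, adjusted p = 0.0238).

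Junb, which often restrains JUN activity, had the most regions, 6. At its promoter region (chr8:84977409-84980563) the young samples had 165, 150 and 137 CPM and the aged ones 166, 162, 202 and 248 CPM. Here 1 aged sample was below the highest young one, and the mean of 194 ± 40.2 CPM (SD, n = 4) in aged liver had a wider spread than the 151 ± 14.0 CPM (SD, n = 3) in young liver. The log2 fold change was 0.37 (SE 0.15) with an edgeR adjusted p of 0.144, and it was 0.23 without the aged sample 4 (adjusted p = 0.249). A neighbouring region inside the gene (chr8:84975937-84977040), which starts 1.68 kb after the TSS, held 61.6 ± 4.88 CPM in young and 73.4 ± 11.6 CPM in aged samples, a log2 fold change of 0.25 with an edgeR adjusted p of 0.253, and 0.15 without the aged sample 4.

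The region with the group of AP-1 sites printed above (chr8:84984761-84986402) behaved differently in sign. Its samples had 53.8, 39.8 and 43.1 CPM in young and 29.3, 36.9, 36.4 and 59.6 CPM in aged liver. Both the lowest and the highest of the 7 values were aged samples. The log2 fold change was -0.16 (95% confidence interval -0.59 to 0.26, edgeR adjusted p = 0.652), and the interval does not show that the ages are alike. Without the aged sample 4 the value was -0.42 (adjusted p = 0.0883), without the aged sample 1 or the young sample 1 it was -0.02, and without the young sample 2 it was -0.26. The remaining Junb regions lay in neighbouring genes. A region at the starts of Rnaseh2a, Gm49661 and Prdx2 (chr8:84968928-84970083) had 34.8, 35.6 and 40.1 CPM in young and 42.6, 49.4, 46.2 and 44.0 CPM in aged samples, which did not overlap (log2 fold change 0.31, edgeR adjusted p = 0.114). Another start of Rnaseh2a, which encodes a subunit of ribonuclease H2, had a log2 fold change of 0.37 (edgeR adjusted p = 0.163; 0.23 without the young sample 3), and a region in the 3′ UTR of Prdx2, an antioxidant peroxiredoxin, had -0.10 (edgeR adjusted p = 0.672; -0.04 without the aged sample 1 and -0.05 without the young sample 3).

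Fos, the founding partner of JUN, had 69.1, 59.5 and 82.9 CPM in young and 66.2, 61.0, 74.9 and 106 CPM in aged samples at its promoter region (chr12:85472094-85474564). The ages overlapped, and the highest value was that of the aged sample 4. The log2 fold change was 0.14 (95% confidence interval -0.23 to 0.51, edgeR adjusted p = 0.667), and on leaving out a sample it ran from -0.05 (without the aged sample 4) to 0.28 (without the young sample 3). The other Fos region (chr12:85485722-85487148), between genes and 11.8 kb from the TSS, had 38.6 ± 0.540 CPM in young and 41.7 ± 5.45 CPM in aged samples (log2 fold change 0.11, edgeR adjusted p = 0.604; 0.02 without the aged sample 4).

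Fosb, a close relative of FOS, had the promoter with the smallest log2 fold change. The region (chr7:19310030-19310638) had 21.0, 23.1 and 23.5 CPM in young and 24.2, 24.5, 23.1 and 20.5 CPM in aged samples. These values overlapped fully, with a log2 fold change of 0.03 (95% confidence interval -0.25 to 0.32, edgeR adjusted p = 0.904), which was -0.01 without the young sample 1. A region over Fosb exons (chr7:19308190-19309207) had 24.7, 24.6 and 21.9 CPM in young and 25.7, 25.7, 31.5 and 25.1 CPM in aged samples. All aged values were above the young ones there, but 3 of the 4 by little, and the log2 fold change was 0.17 (edgeR adjusted p = 0.454), or 0.10 without the aged sample 3. The other Fosb regions lay in Rtn2, in Gm26802 and in D830036C21Rik, with log2 fold changes of 0.09, 0.13 and -0.02 and edgeR adjusted p of 0.825, 0.730 and 0.940. The sign of each of these 3 turned under some alternative given in the closing section.

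Atf3, a stress-induced member of the ATF family that pairs with JUN proteins, had 73.2, 78.5 and 62.3 CPM in young and 92.6, 93.2, 93.6 and 94.6 CPM in aged samples at its promoter region (chr1:191182399-191184177). The ages did not overlap, and the aged samples lay close together, with a mean of 93.5 ± 0.831 CPM (SD, n = 4) against 71.3 ± 8.25 CPM (SD, n = 3). The log2 fold change was 0.38 (95% confidence interval 0.15 to 0.62, edgeR adjusted p = 0.0539; DESeq2 adjusted p = 0.0187). Its 3′ UTR region (chr1:191170198-191171318) had 13.5 ± 2.68 CPM in young and 15.5 ± 2.28 CPM in aged samples (log2 fold change 0.16, edgeR adjusted p = 0.644; 0.05 to 0.32 on leaving out a young sample). The last Atf3 region (chr1:191223917-191225773), at the start of D730003I15Rik and beyond the far end of the Atf3 gene model, had 37.0, 33.0 and 32.1 CPM in young and 30.2, 24.9, 32.7 and 26.7 CPM in aged samples. It overlapped between ages, with a log2 fold change of -0.25 and an edgeR adjusted p of 0.253.

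Egr1, a zinc finger factor that binds GC-rich sites and is induced by growth signals, had a positive log2 fold change at its promoter and negative ones at all 3 other regions, and with offsets on mean abundance all 4 were negative (-0.07 at the promoter). Its promoter region (chr18:34859782-34862636) had 146, 146 and 120 CPM in young and 169, 143, 178 and 198 CPM in aged samples. A single aged sample was below 2 of the young ones, and the log2 fold change was 0.32 (SE 0.13, edgeR adjusted p = 0.141). The region that starts 7.99 kb after the TSS (chr18:34867818-34868452) had 8.52, 7.90 and 9.87 CPM in young and 5.10, 5.30, 6.07 and 3.69 CPM in aged samples. Every aged value was below every young one, with a log2 fold change of -0.80 (95% confidence interval -1.30 to -0.31, edgeR adjusted p = 0.0542; DESeq2 -0.77, adjusted p = 0.0445). These values rest on 26 to 58 counts in each aged sample, and on 60 to 209 in each young one.

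A nearer region, 5.29 kb after the Egr1 TSS (chr18:34865117-34866299), had 25.4, 30.3 and 19.9 CPM in young and 21.9, 16.5, 14.9 and 17.3 CPM in aged samples. The aged sample 1 was above the lowest young one, and the log2 fold change was -0.51 (SE 0.18, edgeR adjusted p = 0.0926). Upstream of the gene, a region at -9.26 kb from the TSS (chr18:34849907-34850562) had 5.46, 6.01 and 4.44 CPM in young and 3.95, 3.53, 3.27 and 2.93 CPM in aged samples. All aged values were below the young ones at 14 to 45 counts each, with a log2 fold change of -0.64 (SE 0.25, edgeR adjusted p = 0.130). All regions in the bins of mean log2 CPM that hold the upstream and the farthest downstream region had median log2 fold changes of -0.25 and -0.14. The nearer downstream region lay in a bin with a median of 0.08, on the other side of 0. The difference in sign between the Egr1 promoter and its other regions was not tested.

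**Figure D2:**
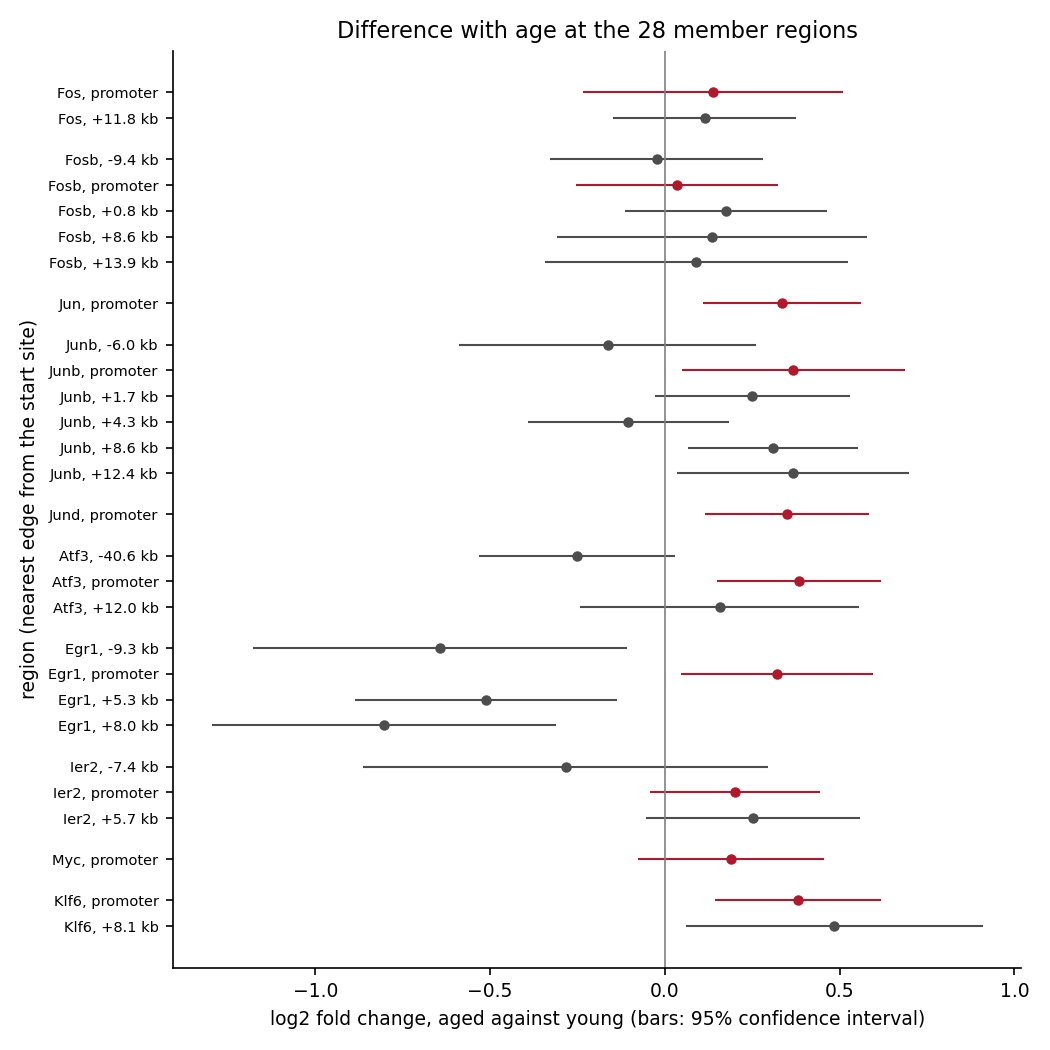
Log2 fold change of aged against young liver (horizontal axis, edgeR with TMM scaling) of the 28 member regions, with a point for the estimate and a bar for the 95% confidence interval, promoter regions in red and others in grey, labelled by gene and by the distance of the nearest edge from the TSS. All 10 red points are right of 0, and the 3 grey Egr1 points, at -0.64, -0.51 and -0.80, are the farthest to the left.

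Ier2, which encodes a small nuclear protein of the early growth response, had 147, 131 and 126 CPM in young and 144, 152, 148 and 176 CPM in aged samples at its promoter region (chr8:84661016-84665343), shared with Gm26664. The lowest aged value was below the highest young one, with a log2 fold change of 0.20 (edgeR adjusted p = 0.292). Between genes, 5.67 kb beyond the TSS, a region (chr8:84656581-84657178) had a log2 fold change of 0.25 (edgeR adjusted p = 0.296), and a region in the 3′ UTR of Nacc1 (chr8:84670241-84670775) had -0.28 (edgeR adjusted p = 0.555), or -0.09 without the young sample 1 and -0.48 without the aged sample 2.

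Myc, a regulator of growth and the cell cycle, had 1 region (chr15:61983378-61987666), shared with the start of Gm37947. It had 82.9, 90.8 and 100 CPM in young and 121, 107, 96.9 and 90.4 CPM in aged samples, which overlapped. The log2 fold change was 0.19 (edgeR adjusted p = 0.368), and 0.10 without the aged sample 1. Per kb of its 4289 bp this was 21.3 CPM in young liver, the lowest level of the 10 promoters. Without division by length its young mean of 91.4 CPM was above those of Atf3 (71.3), Fos (70.5), Klf6 (58.8) and Fosb (22.5). It was below those of the other promoters.

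Klf6, a zinc finger factor of the Krüppel-like family that binds GC boxes, had 61.4, 62.1 and 52.9 CPM in young and 80.7, 69.8, 75.6 and 80.6 CPM in aged samples at its promoter region (chr13:5860747-5862776). The ages did not overlap, and the log2 fold change was 0.38 (SE 0.11, edgeR adjusted p = 0.0565; DESeq2 0.41, adjusted p = 0.0242). Without the aged sample 2 the edgeR adjusted p was 0.0489 at a log2 fold change of 0.42, so that a single library set the side of the threshold. The other Klf6 region (chr13:5869533-5870935), in its 3′ UTR, had 13.1, 8.39 and 9.54 CPM in young and 13.0, 14.1, 13.5 and 16.8 CPM in aged samples. It had the highest log2 fold change of the 28 regions, 0.48 (SE 0.20, edgeR adjusted p = 0.149), with 1 aged sample just below the highest young one.

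Per kb of region, the promoters of young liver were ordered Egr1 (48.1 CPM per kb), Junb (47.7), Jun (46.6), Jund (44.6), Atf3 (40.1), Fosb (37.0), Ier2 (31.2), Klf6 (29.0), Fos (28.5) and Myc (21.3). Between neighbours in this order the young samples were apart only for Fosb above Ier2 and for Fos above Myc, and all other neighbours overlapped. In aged liver Junb (61.6 ± 12.8 CPM per kb) stood above Egr1 (60.2 ± 7.97), and Klf6 (37.8 ± 2.54) above Ier2 (35.9 ± 3.25), by less than the SD. Fosb (37.9 ± 3.02) and Klf6 were within 1 SD of each other in aged liver, but not in young liver. This order depends on the lengths of the regions, such as 609 bp at Fosb and 4289 bp at Myc.

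The fold changes of the promoters moved with the strength of the regions. Over all regions the median log2 fold change went from -0.42 in the weakest bin by mean log2 CPM to 0.28 in the strongest. With offsets fitted on mean abundance, which take this slope out by construction, 2 of the 10 member promoters were above 0 (Atf3, 0.09, and Klf6, 0.12), and the median of the 10 was -0.06. With scaling to the total counts in regions, 9 of the 10 were above 0 with a median of 0.21, Fosb being at -0.08. That scaling moved the median of all regions from -0.04 to -0.15. With offsets fitted on GC content the Klf6 promoter had 0.48, the Atf3 promoter 0.38 and the Fosb promoter 0.03. Over all 28 regions, 20 were above 0 with TMM scaling (median 0.17), 17 with total counts (median 0.05) and 10 with offsets on mean abundance (median -0.06). Of all 55680 regions, 25929, 19250 and 28696 were above 0 under these 3 scalings, and of the 15422 promoter regions 9421, 7209 and 6865.

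**Figure D3:**
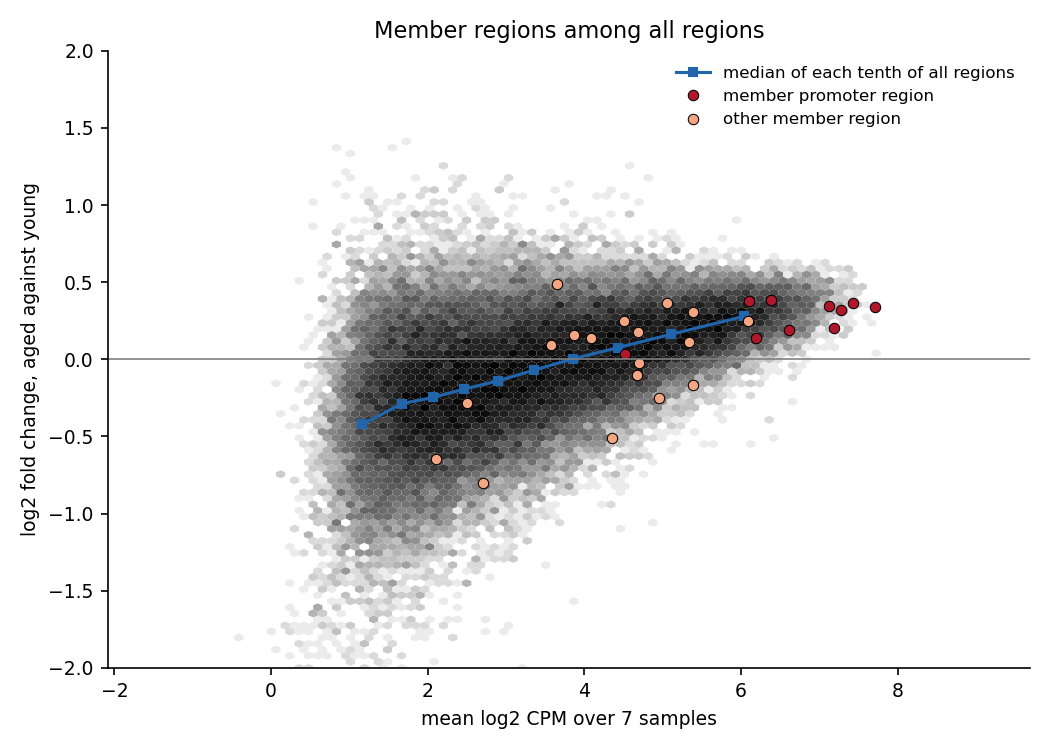
Log2 fold change of aged against young liver (vertical axis, shown from -2 to 2) against mean log2 CPM over the 7 samples (horizontal axis) for all 55680 regions (grey density, darker for more regions), with member promoter regions in red, other member regions in orange and the median of each of the 10 bins in blue. The blue line climbs from -0.42 to 0.28, and 9 of the 10 red points lie in its last bin.

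**Figure D4:**
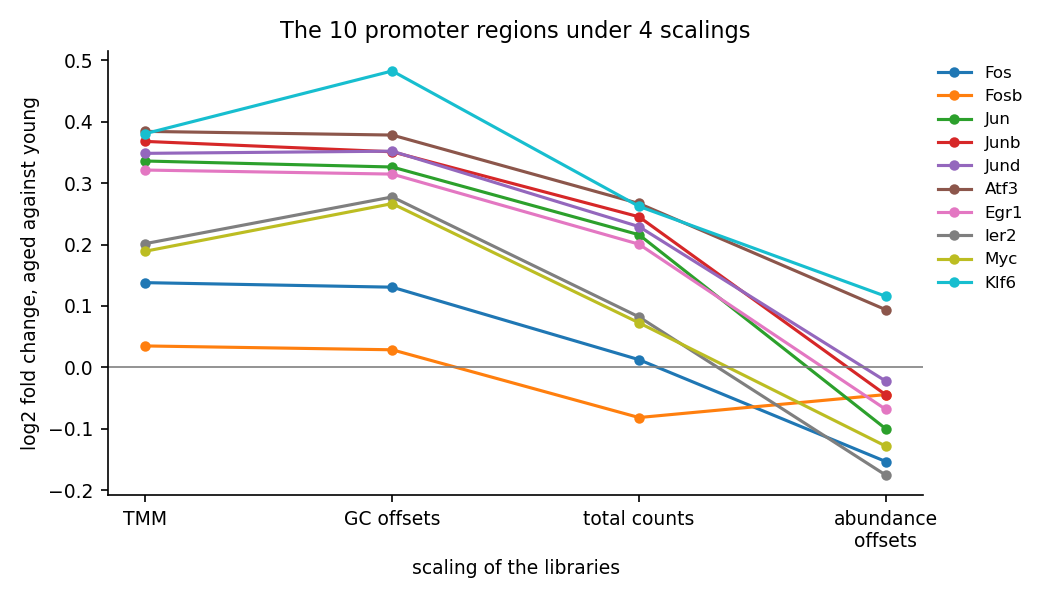
Log2 fold change of aged against young liver (vertical axis) of the 10 member promoter regions under TMM scaling, offsets on GC content, total counts in regions and offsets on mean abundance (horizontal axis), with a line for each gene. All 10 lines are above 0 with TMM scaling, 9 with total counts and 2, Atf3 and Klf6, with offsets on mean abundance.

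Samples of an age also differed among themselves at these promoters. The aged sample 4 was the highest of the aged at 7 of the 10, with its largest deviation from the aged mean at Fos (0.49 on the log2 scale), and the aged sample 2 was the lowest at 5. Among the young samples, sample 3 was the lowest at 6 and the highest at 4, with its largest deviation at Fos (0.25). Library totals in regions ran from 4474652 to 25461110 counts, and each member promoter held between 99 and 4714 counts in a sample.

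The rest of the pathway was followed at promoter regions, where 4.48% of all 15422 had an edgeR adjusted p under 0.05 with aged higher and 2.06% with aged lower. The unadjusted p was under 0.05 for 32.1% of them, and DESeq2 called 12.2% in either direction and 10% with aged higher. Other AP-1 subunits, of the FOS, ATF, BATF and MAF families, had a promoter region for 12 of 13 genes (not Batf), of which 0 passed in either direction. Their unadjusted p was under 0.05 for 5, DESeq2 called 0, and the median log2 fold change was 0.02 with 7 of 12 above 0. At the ends of this list were Atf7, a CRE-binding factor, at 0.41 (62.1 ± 12.5 CPM in young, 83.0 ± 6.00 CPM in aged samples, edgeR adjusted p = 0.0828), and Fosl1, a FOS-related subunit, at -0.77 (3.66 ± 0.626 and 2.10 ± 0.773 CPM, edgeR adjusted p = 0.149). The Atf7 region is shared with the start of Gm28047.

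Of 38 other immediate early genes, 37 had a promoter region (not Egr3), and 1 passed with aged higher and 0 with aged lower. Nfil3, a basic leucine zipper repressor with a part in circadian control, was more accessible in aged liver, with 72.7 ± 3.50 CPM in young and 103 ± 12.2 CPM in aged samples (log2 fold change 0.51, edgeR adjusted p = 0.0271). All aged samples were above all young ones there. The call was lost without the aged sample 1 (adjusted p = 0.0790), the aged sample 3 (0.0886), the young sample 1 (0.0991) or the young sample 2 (0.0775), and with offsets on mean abundance (log2 fold change 0.20, adjusted p = 0.321). It was lost as well on summing the aged samples 1 and 3 (0.0740) or 3 and 4 (0.0541), a pair of which may be lobules of 1 animal, and with a replicate block (0.0568). DESeq2 called 7 of the 37, all with aged higher. The median log2 fold change of the list was 0.15 with 31 of 37 above 0. Its lowest value was that of Dusp5, a phosphatase of ERK kinases, at -0.60 (19.6 ± 1.42 and 12.8 ± 2.74 CPM, edgeR adjusted p = 0.0586), where all aged samples were below the young ones. Without the aged sample 4 Dusp5 passed, at -0.75 and an adjusted p of 0.0173.

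All 22 genes of the upstream kinases and factors had a promoter region, and 0 passed in either direction, while 10 had an unadjusted p under 0.05 and DESeq2 called 5 higher. The median log2 fold change was 0.26 with 19 of 22 above 0. Stat3, the cytokine-activated factor, had the highest value, 0.49 (73.3 ± 19.5 and 103 ± 16.1 CPM, edgeR adjusted p = 0.0960), and Elk3, an SRF partner of the ETS family, the lowest, -0.35 (9.13 ± 0.814 and 7.16 ± 2.65 CPM, edgeR adjusted p = 0.432). Without the aged sample 2, 2 genes of this list passed, Mrtfa (adjusted p = 0.0350) and Creb1 (0.0495). These 2 were named after their values were seen. With offsets on mean abundance the medians of the 3 lists were -0.20, -0.08 and 0.00.

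Regions that hold an AP-1 site were then compared with those that do not, away from promoters, where 10387 of the 40258 regions held TGANTCA. For each sample the mean log2 CPM of the regions without a site was taken from that of the regions with a site. This difference was 0.540, 0.525 and 0.572 in young and 0.589, 0.601, 0.632 and 0.677 in aged samples. The aged values were all above the young ones, by 0.08 on average (0.546 ± 0.0241, n = 3, and 0.625 ± 0.0391, n = 4), with an exact two-sided permutation p of 0.0571, the smallest that 3 samples against 4 allow. Regions with a site were longer (median 961 against 672 bp) and stronger (median log2 CPM 3.22 against 2.52). When the regions were compared within the 10 bins of mean log2 CPM, the mean difference was 0.0184 in young and 0.00767 in aged samples, a change of -0.01 (exact permutation p = 0.629). With sites counted only in the central 300 bp of a region, the change was 0.02 (exact permutation p = 0.286). Among the regions with a site, 256 (2.46%) passed the edgeR test with aged higher and 312 (3.00%) with aged lower, against 1.38% and 4.05% of those without a site.

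The labelled tissue was checked by markers at promoters. All 7 hepatocyte markers had a promoter region, with summed levels of 636 to 702 CPM in young and 761 to 899.7 CPM in aged samples. Of these 7, Apoa1, a main protein of high-density lipoprotein, passed with aged higher (log2 fold change 0.53, edgeR adjusted p = 0.0331), a call lost without the aged sample 1 (adjusted p = 0.0924) or 3 (0.106) or the young sample 1 (0.122), 2 (0.0780) or 3 (0.0569). Apoa1 also did not pass on summing the aged samples 1 and 3 (0.0903) or 3 and 4 (0.0675), and with offsets on mean abundance its value was 0.077 on the log2 scale (adjusted p = 0.770). The Apoa1 call was lost as well with a replicate block (0.0743), with at least 10 counts in every sample (0.0713) and after thinning (0.061). Of Kupffer cell and macrophage markers 2 of 9 had a region (Clec4f and Spi1; 7.29 to 9.16 and 3.33 to 6.87 CPM), of sinusoidal endothelial markers 4 of 7 (63.3 to 72.3 and 52.6 to 87.8 CPM), of stellate cell markers 4 of 7 (28.4 to 31.7 and 16.7 to 25.1 CPM), of cholangiocyte markers 3 of 6 (43.8 to 52.0 and 39.4 to 56.9 CPM) and of lymphocyte markers 0 of 9. The summed hepatocyte levels were above those of all young samples in every aged sample, as at the Jun, Jund, Atf3 and Klf6 promoters, and the summed Kupffer cell and stellate cell levels were below, as at 2 of the Egr1 regions. Taken singly, the ages were apart at Apoa1, Hnf4a, Reln and Col1a1, and they overlapped at the other markers of these cell types. With offsets on mean abundance the median log2 fold change of hepatocyte markers went from 0.25 to -0.04. That of Kupffer cell and macrophage markers went from -0.68 to -0.30, and that of stellate cell markers from -0.44 to -0.07. Whether cell types have a part in the values at the member regions was not tested.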

How the data were processed

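ATAC-seq was performed on nuclei of mouse liver, in 3 young and 4 aged samples, the latter from 3 animals. The deposited file holds raw counts per consensus region, with no normalization. According to the methods and the submitters' processing notes, the authors trimmed reads with cutadapt 1.13, aligned them to GRCm38 with Bowtie2 2.4.1, removed duplicates and mitochondrial reads, called peaks with MACS2 2.2.7, kept regions supported by peaks of 2 or more libraries and counted reads with featureCounts. Merging peaks favours regions open in several libraries. Total counts per sample ran from 4474652 to 25461110. Groups came from the sample labels, and 0 columns were left without a sample.

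Regions were annotated with GENCODE M21 (promoter: TSS ± 200 bp; downstream: 3000 bp after a gene). Where a gene had several promoter regions, the strongest by mean log2 CPM stood for it. edgeR 4.0.16 (R 4.3.3) was fitted to the counts of all regions with no filter, TMM scaling and the quasi-likelihood test, after the script had been tested on simulated data. The simulated differences were larger than those at the member regions, so that test does not show whether differences of this size would be found. Log2 CPM used a prior count of 2. The 10 genes, their lists and the tests were chosen with earlier results of these data known. The text names all member regions and, of the pathway lists, the genes that passed the threshold and those with the largest and smallest log2 fold change, with exceptions stated. Alternatives were DESeq2 1.42.0, limma 3.58.1 (voom), total counts, loess offsets (span 0.3) on mean abundance and on GC content, filterByExpr, at least 10 counts in every sample, thinning to 4474652 counts, a replicate block, leaving out each sample, summing each pair of aged samples, a threshold of 0.01, gene bodies alone or 50 kb windows, and promoters of TSS ± 1000 bp. By minimap2 2.31, 0 of the 28 member regions had a near-identical copy (80% cover, 95% identity). Permutation tests used scipy 1.17.1.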

Additional observations from a re-analysis of the deposited data

Results flagged for a closer look

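Among the 28 member regions, 1 had a sample of the aged group that stood far from the other 3. At the region over Fosb exons, the aged sample 3 had a log2 CPM of 4.99, while the other aged samples had 4.66 to 4.70 and the young samples 4.46 to 4.64. On the CPM scale these were 31.5 against 25.1 to 25.7. The gap made up 0.885 of the range of the aged group, above the critical share of Dixon's test for 4 samples. Since 28 groups were checked and chance flags about 1 in 20 groups, 1 such region is near the number that chance gives.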

How the results depend on the processing

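The 28 member regions were refitted under 22 alternatives each, which gave 616 values. Of these, 568 kept their sign and their side of the threshold, 20 passed the threshold with the same sign and 28 changed sign, at 14 of the regions. Beside 0 called in each direction, DESeq2 called 4 member regions higher and 1 lower, voom 4 and 1, offsets on GC content 4 higher, the sum of the aged samples 2 and 4 gave 2 and 1, total counts 2 lower and 50 kb windows 1 lower. Leaving out a sample gave 0 to 1 higher, the 1 being Klf6 without the aged sample 2, and 0 to 0 lower. The median of the member regions (0.17) was 0.14 to 0.20 on leaving out a sample, -0.057 with offsets on mean abundance, 0.051 with total counts, 0.29 for gene bodies alone and 0.019 for 50 kb windows. The median of the promoters (0.33) was 0.26 to 0.37 on leaving out a sample, -0.057 with offsets on mean abundance and 0.21 with total counts. With a replicate block it was 0.25. The replicate numbers did not pair the samples (correlations of same-numbered deviations -0.12, 0.06 and 0.03), and the block called 0 member regions and 4078 of all regions instead of 3198.

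Counts of calls over all regions were 4691 with DESeq2, 4580 with voom, 5654 with offsets on GC content, 664 with offsets on mean abundance, 451 after thinning, 1327 with at least 10 counts, 188 to 4230 on leaving out a sample and 962 to 4742 on summing aged pairs. Other immediate early genes with aged higher (1) became 7 with DESeq2, 6 with voom, 8 with offsets on GC content, 2 and 4 on summing the aged samples 1 and 4 or 2 and 4, 0 to 3 on leaving out a sample, and 0 on summing 1 and 3 or 3 and 4, at least 10 counts, offsets on mean abundance, the replicate block, thinning or a threshold of 0.01. With aged lower (0) they became 1 on summing 1 and 4 or 2 and 4, with voom, offsets on GC content, the replicate block or total counts, and 0 to 1 on leaving out a sample. Upstream factors with aged higher (0) became 5 with DESeq2, 4 with voom, 6 with offsets on GC content, 1 and 4 on summing 1 and 2 or 2 and 4, and 0 to 2 on leaving out a sample, with 0 lower throughout. Other AP-1 subunits became 2 higher with offsets on GC content and stayed at 0 otherwise. The difference at AP-1 site regions (0.08) was 0.061 to 0.092 on leaving out a sample and -0.011 within bins of mean log2 CPM.

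With offsets on mean abundance the log2 fold change changed sign at the promoters of Fos (-0.15), Fosb (-0.044), Jun (-0.10), Junb (-0.045), Jund (-0.022), Egr1 (-0.068), Ier2 (-0.18) and Myc (-0.13), at the other Fos region (-0.070) and at the inner Junb region (-0.018). With total counts it did so at the other Fos region (-0.0067), in Rtn2 (-0.030) and at the Fosb promoter (-0.082). The Fos promoter had -0.056 with the replicate block and -0.053 without the aged sample 4, and 0.28 at most on leaving out a sample. The Fosb promoter had -0.0054 with at least 10 counts, and -0.0080 (without the young sample 1) to 0.098 on leaving out a sample. On leaving out a sample the regions in Rtn2 and Gm26802 had -0.060 to 0.30 and -0.045 to 0.42, both lowest without the young sample 2. The region in D830036C21Rik had 0.0080 with DESeq2, 0.0073 and 0.026 on summing the aged samples 1 and 3 or 3 and 4, 0.012 with the replicate block, 0.076 after thinning, 0.050 and 0.024 without the aged sample 3 or 4 and 0.018 without the young sample 2. The Prdx2 region had 0.0039 with offsets on GC content. The causes were not tested. On leaving out a sample, 15 of the 28 log2 fold changes moved by over 1.5 times or changed sign, 9 of them without the aged sample 4. The weakest Egr1 region rests on 14 to 45 counts per aged sample, and intervals cover the spread of these samples only.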
